A study of Homo sapiens with 12 samples.

Results

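Type I interferon response genes are the genes that a cell switches on when type I interferon binds its receptor, and most of their products act against viruses. A list of 39 such genes was looked up by symbol among the 58735 genes counted in 12 RNA sequencing libraries of LX-2 cells. All 39 symbols were found. The list was chosen with earlier results of these data known. LX-2 is an established human hepatic stellate cell line, grown to model fibrosis of the liver in culture. The libraries form 4 groups of 3. SiNAT10_TGFB cells received siRNA against NAT10 and, 48 h later, TGF-β1 at 5 ng/ml for 24 h. SiNAT10 cells received the siRNA alone, and their harvest time is not given here. TGFB cells received TGF-β1 at the same dose and for the same time, and con cells were untreated. TGF-β1 drives stellate cells to become myofibroblasts that lay down matrix, and NAT10 encodes an RNA cytidine acetyltransferase. The siRNA was delivered with Lipofectamine 2000, and no control siRNA group appears in the labels, so transfection and the loss of NAT10 cannot be told apart in any siRNA comparison below. The 3 libraries of a group are named as biological replicates, with nothing said of separate cultures, so p-values measure the spread between these libraries, which may be technical.

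Type I interferons such as interferon beta bind a receptor of the subunits IFNAR1 and IFNAR2, whose kinases JAK1 and TYK2 phosphorylate STAT proteins. STAT2 and IRF9 are subunits of the complex ISGF3, which binds the interferon-stimulated response element (ISRE) in front of its target genes. The targets include proteins that bind or cut viral RNA, block viral entry or budding, or attach the ubiquitin-like protein ISG15 to other proteins, and others that turn the response down again. Stellate cells can respond to interferon, and several of these genes are also switched on directly by IRF3 after cytosolic RNA is sensed, without interferon.

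Many of the genes carry letters of the response element in front of their start. For 32 of the 39 genes, RefSeq promoter windows of GRCh38.p14 (250 bases before to 50 after the start) were at hand, and IFIT2, IFITM2, IRF7, MX2, OAS2, OASL and USP18 had none. The ISRE letters, GAAA, any 2 bases and GAAA again, or TTTC, any 2 bases and TTTC where the element lies on the other strand, were found in the windows of 21 of the 32 genes (65.6%), against 1195 of all 27305 genes in the same table (4.38%). Genes with several starts have several windows, and counted per window the letters were in 25 of 44 (56.8%), against 1255 of 35116 (3.57%). The letters of the gamma-activated site, TTC, any 3 bases and GAA, which read the same on both strands, were in the windows of 10 of the 32 genes (31.2%), against 2560 of 27305 (9.38%). The 200 bases before the start are printed here for 6 genes picked from those with the letters that rose in both siRNA comparisons below. They are also printed for OAS3, which has the letters but a small difference, and for IRF1, which has no ISRE letters in its window. This choice cannot relate the letters to the size of a difference. OAS1, without the letters in its window and not printed, rose by more than IFIT1 in both siRNA comparisons. Where a gene has several windows, one with the letters is printed. Capitals mark the ISRE letters in either orientation, and in IRF1 the gamma-activated site letters; in ISG15 a pair of overlapping matches makes 1 run. RSAD2 (chr2:6877577-6877776, plus strand), ISG20 (chr15:88638816-88639015, plus strand), ISG15 (chr1:1013297-1013496, plus strand), IFIT3 (chr10:89327797-89327996, plus strand), IFIT1 (chr10:89392423-89392622, plus strand), IFI44 (chr1:78649589-78649788, plus strand), OAS3 (chr12:112938274-112938473, plus strand) and IRF1 (chr5:132490774-132490973, minus strand) follow, each read 5′ to 3′ on the strand of its gene.
RSAD2: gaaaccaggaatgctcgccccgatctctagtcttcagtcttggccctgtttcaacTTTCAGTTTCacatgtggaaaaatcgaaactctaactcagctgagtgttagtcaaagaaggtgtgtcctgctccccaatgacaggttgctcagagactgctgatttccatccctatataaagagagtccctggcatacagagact
ISG20: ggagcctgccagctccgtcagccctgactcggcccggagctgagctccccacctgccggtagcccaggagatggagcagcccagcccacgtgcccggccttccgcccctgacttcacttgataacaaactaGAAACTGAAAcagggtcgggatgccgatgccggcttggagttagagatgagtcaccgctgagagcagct
ISG15: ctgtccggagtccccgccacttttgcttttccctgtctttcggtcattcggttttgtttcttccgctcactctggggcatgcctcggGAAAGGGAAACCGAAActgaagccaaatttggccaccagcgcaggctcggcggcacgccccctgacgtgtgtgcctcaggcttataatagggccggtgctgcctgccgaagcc
IFIT3: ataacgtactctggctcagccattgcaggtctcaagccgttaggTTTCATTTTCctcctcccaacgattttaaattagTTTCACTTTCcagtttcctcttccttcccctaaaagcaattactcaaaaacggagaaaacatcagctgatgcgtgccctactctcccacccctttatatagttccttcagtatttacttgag
IFIT1: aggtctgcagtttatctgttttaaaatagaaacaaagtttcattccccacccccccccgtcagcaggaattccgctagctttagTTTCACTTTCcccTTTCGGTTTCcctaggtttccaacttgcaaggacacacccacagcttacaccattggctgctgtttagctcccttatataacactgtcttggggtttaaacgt
IFI44: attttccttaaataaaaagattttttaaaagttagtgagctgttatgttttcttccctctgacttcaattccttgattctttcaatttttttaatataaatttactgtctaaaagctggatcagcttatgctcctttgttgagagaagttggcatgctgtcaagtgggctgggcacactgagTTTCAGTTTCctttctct
OAS3: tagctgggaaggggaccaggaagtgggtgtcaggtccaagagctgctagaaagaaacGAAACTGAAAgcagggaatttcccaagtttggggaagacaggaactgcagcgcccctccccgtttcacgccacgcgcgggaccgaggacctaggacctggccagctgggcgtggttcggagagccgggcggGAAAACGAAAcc
IRF1: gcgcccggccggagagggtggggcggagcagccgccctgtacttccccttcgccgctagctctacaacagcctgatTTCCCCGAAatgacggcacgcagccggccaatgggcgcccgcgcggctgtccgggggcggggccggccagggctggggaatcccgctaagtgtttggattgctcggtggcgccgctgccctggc

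Total counts per library were 25877008 to 28311434 in the SiNAT10_TGFB group, 26222772 to 27939186 in the SiNAT10 group, 32168520 to 35132582 in the TGFB group and 29797990 to 33477334 in the con group. Levels are CPM, a library's counts scaled to a common total, with TMM scaling. A gene was called higher or lower at an adjusted p under 0.05 in edgeR's quasi-likelihood test, adjusted by Benjamini-Hochberg over the 18560 genes tested, and each log2 fold change is given with its standard error (SE). The sizes by which a gene rose or fell are log2 fold changes, and where 2 are given without their groups, the first is for SiNAT10 over con and the second for SiNAT10_TGFB over TGFB. NAT10 stood at 18.6 ± 2.51 CPM in SiNAT10_TGFB cells and 18.6 ± 0.817 CPM in SiNAT10 cells, against 66.97 ± 1.19 CPM in TGFB cells and 67.2 ± 3.75 CPM in con cells (SD, n = 3 each). Of the 10 stellate markers, VIM, COL1A1, SPARC and TIMP1 were abundant in every library and PDGFRB was present, COL1A2 and GFAP were low, LRAT was at 0 and DES and LUM were at or near 0. The 10 summed to 4247 to 4437 CPM in SiNAT10_TGFB, 3271.5 to 3494 CPM in SiNAT10, 10628 to 11324 CPM in TGFB and 5147 to 5459 CPM in con libraries. Of the 7 that could be tested, 2 rose and 4 fell in SiNAT10 over con, 1 rose and 4 fell in SiNAT10_TGFB over TGFB, and 5 rose and 0 fell in TGFB over con. Of all genes tested, 26.4% were called higher and 26.4% lower in SiNAT10 over con. The shares were 26.3% and 26.8% in SiNAT10_TGFB over TGFB, and 11.9% and 12.2% in TGFB over con. The plasmacytoid dendritic cell markers CLEC4C and LILRA4 were at 0 in all 12 libraries, and the 3 leukocyte markers together reached at most 0.307 CPM. The third plasmacytoid marker, TCF4, which is not specific to these cells, had 34.4 to 38.6 CPM in SiNAT10_TGFB, 19.0 to 23.1 CPM in SiNAT10, 87.1 to 95.3 CPM in TGFB and 34.4 to 37.9 CPM in con libraries. The 3 macrophage markers summed to 6.49 to 6.84, 5.90 to 5.998, 7.15 to 8.67 and 4.59 to 5.90 CPM in the same groups, and the 3 endothelial markers to 1.74 to 2.15, 1.07 to 2.196, 1.06 to 1.65 and 1.13 to 1.62 CPM. Of the macrophage markers 2 could be tested, and neither was called in SiNAT10 over con. In TGFB over con 1 rose (1.69) and 1 fell (−1.01), and in SiNAT10_TGFB over TGFB 1 rose (1.40) and 1 fell (−1.38). The macrophage marker CD68 shares 81.7% of its exon bases with a gene on the same strand. Of the endothelial markers PECAM1, at no more than 1.25 CPM in any library, rose in both siRNA comparisons, by 2.32 and by 1.88 on the log2 scale, and VWF and CDH5 were not called. Mitochondrial genes took 2.24 to 2.34% of counts in SiNAT10_TGFB, against 2.01 to 2.12% in TGFB libraries, and 2.404 to 2.495% in SiNAT10, against 2.13 to 2.23% in con libraries, without overlap in either pair. The part of these markers and of the mitochondrial share in the results was not tested. Libraries of a group differed by more than counting noise, most of all SiNAT10 replicates 1 and 3 (chi-square per degree of freedom 20.6), and none was a copy of another.

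All but 1 of the 39 genes could be tested. CMPK2, a mitochondrial nucleotide kinase whose gene neighbours RSAD2 head to head, had 0 counts in all 12 libraries. If its reads were counted, this allows a level of up to 0.0871 to 0.115 CPM per library (3 counts, counting error only). The counting tool is not named, and whether CMPK2 was dropped in counting was not tested. The other 38 had at least 40 counts in every library, so none was tested on the strength of 1 group alone. Per length, as deposited FPKM, 5 genes averaged over 20 FPKM in con cells: IFITM3, ISG15, IFI6, IFIT3 and BST2. ISG15 averaged 268 ± 13.6 FPKM in SiNAT10_TGFB cells, 230.5 ± 22.9 FPKM in SiNAT10 cells, 65.7 ± 2.905 FPKM in TGFB cells and 73.1 ± 6.66 FPKM in con cells (SD, n = 3 each), and IFITM3 averaged 138 ± 2.74, 168 ± 21.3, 88.7 ± 8.12 and 102 ± 11.8 FPKM in the same groups. IFITM3 thus had the highest FPKM of the list in con cells and ISG15 the highest in both siRNA groups. CMPK2, IFI44L, IRF9, XAF1, MX2, MX1, OAS1 and HERC5 averaged under 1 FPKM in con cells.

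The siRNA without added TGF-β1 was tested by SiNAT10 over con, and most of the list was higher with it. In SiNAT10 cells 29 of the 38 genes tested rose and 0 fell, where 26.4% of all genes tested were called higher and 26.4% lower. DESeq2 also called 0 lower, and 0 were lower at an unadjusted p under 0.05, a threshold at which the share of all genes was not counted. Over all genes DESeq2 made 9652 calls in either direction, 51% of them higher. Of the 38, 10 rose by at least 1 on the log2 scale, a size reached by 7.25% of all genes. The median log2 fold change of the 38 was 0.67, against 0.02 for all genes. In 32 genes the 3 SiNAT10 libraries lay above the 3 con libraries without overlap, as in 28.9% of all genes. The summed CPM of the list ran from 2177 to 2283 in SiNAT10 libraries and from 1157 to 1193 in con libraries. Each library is one bulk RNA sample, so a change in the number of cells expressing a gene and a change in RNA per cell cannot be told apart.

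Under TGF-β1, the siRNA was tested by SiNAT10_TGFB over TGFB. Here 34 of the 38 rose and 1, IRF9, fell, where 26.3% of all genes were called higher and 26.8% lower. IFITM2, IRF7 and XAF1 did not pass the test. A rise of at least 1 on the log2 scale was seen for 20 of the 38, and for 7.16% of all genes. The median log2 fold change of the list was 1.04, against 0.01 for all genes. The groups did not overlap, with SiNAT10_TGFB above TGFB, in 34 genes, as in 30.2% of all genes. The summed CPM ran from 2364 to 2539.5 in SiNAT10_TGFB libraries and from 898 to 934 in TGFB libraries. The siRNA comparisons without and with TGF-β1 share no library, and 29 of the 38 genes rose in both, against 20.5% of all genes.

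**Figure D1:**
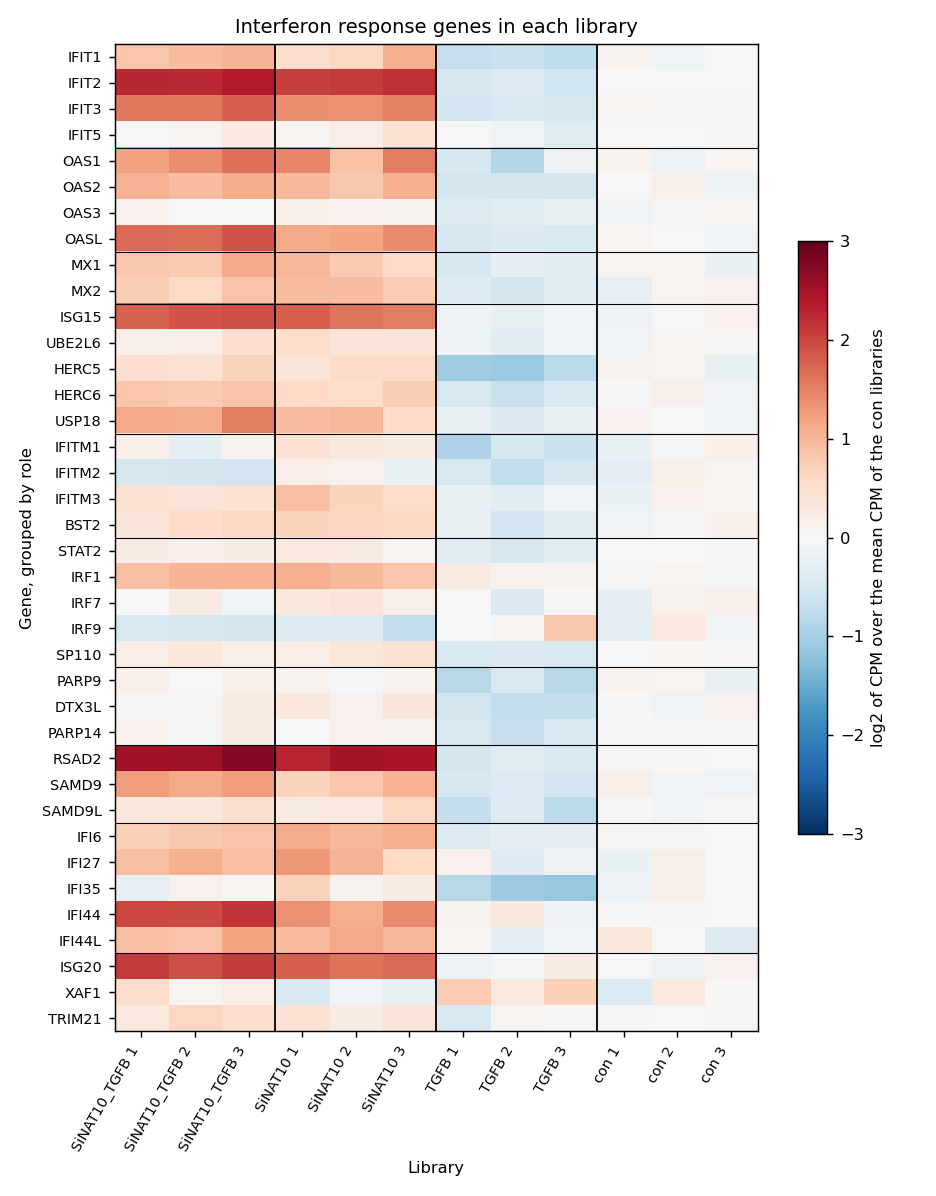
Each row is 1 of the 38 genes tested, grouped by role and divided by thin lines, and each column 1 library, ordered SiNAT10_TGFB, SiNAT10, TGFB and con with 3 libraries each. The colour is the log2 of the library's CPM over the mean CPM of the 3 con libraries, red above and blue below; most rows are red in the 6 siRNA libraries and pale blue in the 3 TGFB libraries, and IRF9 runs the other way.

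TGF-β1 without siRNA was tested by TGFB over con, and here most genes of the list that passed the test were lower. In TGFB cells 22 of the 38 genes fell and 1, XAF1, rose, where 12.2% of all genes were called lower and 11.9% higher. IFI35 was the 1 gene that fell by at least 1 on the log2 scale, as did 2.15% of all genes. The median of the list was −0.41, against −0.01 for all genes. In 25 genes the TGFB libraries lay below the con libraries without overlap, as in 20.8% of all genes. The summed CPM of the list, 898 to 934 in TGFB libraries, lay below the 1157 to 1193 of con libraries. Scaling by total counts alone, in place of TMM, moved the median of all genes to −0.14 in this comparison and to 0.14 for SiNAT10_TGFB over TGFB, and made 23.4% in place of 49.5% of all calls and 61.3% in place of 49.6% of all calls higher ones. On that scaling the list had 0 higher and 28 lower in TGFB over con, and 34 higher and 1 lower in SiNAT10_TGFB over TGFB. No gene of the list that was called under either scaling changed its direction.

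TGF-β1 in cells that had received the siRNA was tested by SiNAT10_TGFB over SiNAT10. There 5 of the 38 rose (IFIT3, OASL, SAMD9, IFI44 and ISG20) and 3 fell (IFITM2, IFITM3 and IFI6), where 5.92% of all genes were called higher and 5.15% lower. The median was 0.03, against −0.0042 for all genes. Of the 22 genes that fell with TGF-β1 without siRNA, 17 were not called here, 2 fell (IFITM2 and IFI6) and 3 rose (IFIT3, OASL and SAMD9). Calls were fewer here over all genes too, with 956 lower, against 2259 lower in TGFB over con. How the 2259 split here was not counted, so the 17 cannot be read as particular to the list. The TGF-β1 comparisons without and with siRNA share no library. On scaling by total counts alone 3 rose and 4 fell, the median was −0.03, and 36.7% in place of 53.5% of all calls were higher ones. The 5 became 3 without SiNAT10 replicate 2 or SiNAT10_TGFB replicate 3, where IFIT3 and ISG20 were no longer called. The 3 became 1, IFITM2, without SiNAT10 replicate 1 or SiNAT10_TGFB replicate 1.

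Whether the siRNA difference itself depended on TGF-β1 was tested by the interaction, the log2 fold change of SiNAT10_TGFB over TGFB minus that of SiNAT10 over con. It was called higher for 15 of the 38 genes and lower for 0, where 1.94% of all genes were called higher and 1.91% lower. DESeq2 called 16 higher and 0 lower, beside 931 calls in either direction among 37030 genes, 53.3% of them higher. At an unadjusted p under 0.05 there were 23 higher and 0 lower, and the share of all genes at that threshold was not counted. Fewer were higher at an adjusted p under 0.01 (10), on log2(FPKM + 1) with a filter (10) and without one (6), and on log2(FPKM + 0.1) (11), with 0 lower in each. Over all genes, calls in either direction numbered 383 at an adjusted p under 0.01. They numbered 677 on log2(FPKM + 1) with a filter, 424 without one and 533 on log2(FPKM + 0.1). The 15 were IFIT1, IFIT2, IFIT3, OAS2, OASL, ISG15, HERC5, HERC6, STAT2, PARP9, PARP14, RSAD2, SAMD9, SAMD9L and IFI44. The median of the 38 was 0.37, against 0.0038 for all genes, and 32 of the 38 lay above 0. Of the 15 calls, 11 held when each library was left out in turn, and those of ISG15, PARP9, SAMD9L and STAT2 did not. They were lost under 9, 6, 8 and 6 of the 12 omissions, at values of 0.31 to 0.41 for ISG15, 0.67 to 0.70 for PARP9, 0.53 to 0.62 for SAMD9L and 0.32 to 0.39 for STAT2. Over all 23 alternative settings, omissions included, they were lost in 16, 10, 12 and 11. On scaling by total counts alone 17 were called higher and 0 lower, while the higher share of all interaction calls went to 68.9%, against 50.4% with TMM. The interaction is the same number whether it is read as a siRNA difference that was larger with TGF-β1 or as a TGF-β1 difference that was higher with siRNA.

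**Figure D2:**
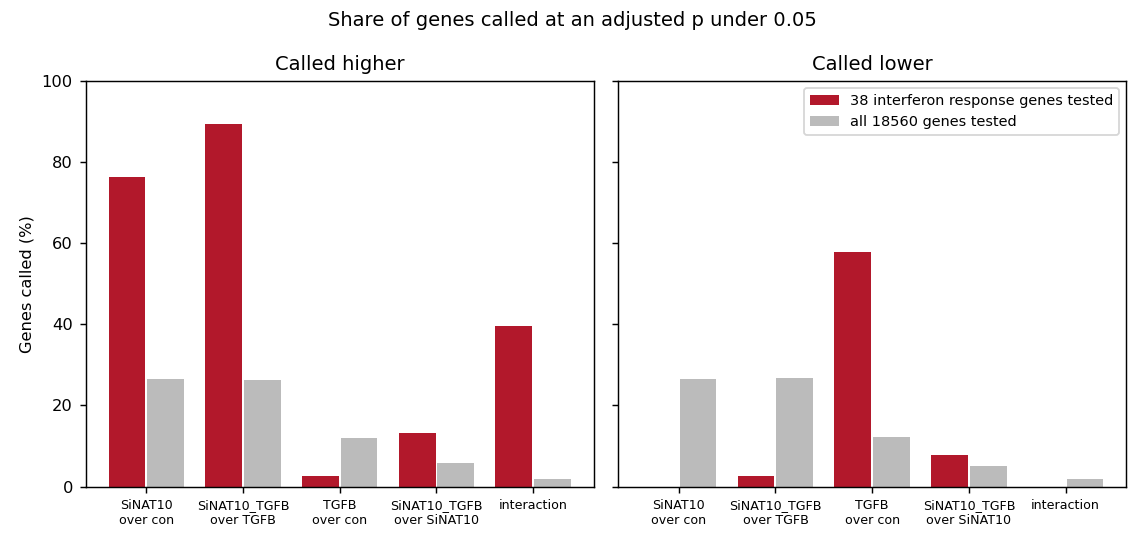
Bars give the percentage of the 38 interferon response genes tested (red) and of all 18560 genes tested (grey) that were called at an adjusted p under 0.05 in each comparison, higher on the left and lower on the right. The list stands at 76.3% and 89.5% higher in the siRNA comparisons and at 57.9% lower for TGFB over con.

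The IFIT proteins bind viral RNA, in part by its 5′ end, and their 4 genes lie side by side on chromosome 10. Of the 4, 3 rose in SiNAT10 over con and all 4 in SiNAT10_TGFB over TGFB, while 3 fell in TGFB over con. Over all genes tested the same shares were 26.4%, 26.3% and 12.2%. The counts given below for the other role groups stand beside these shares. IFIT2 (ENSG00000119922, chromosome 10, 89283694 to 89309276, hg38) stood at 316, 313 and 337 CPM in SiNAT10_TGFB cells, 274, 282 and 303 CPM in SiNAT10 cells, 46.8, 49.9 and 43.3 CPM in TGFB cells and 65.6, 66.2 and 66.5 CPM in con cells. Every siRNA library was above every library without siRNA, and every TGFB library was below every con library. The log2 fold change was 2.12 (SE 0.064, adjusted p = 2.67e-17) for SiNAT10 over con, 2.79 (SE 0.066, adjusted p = 5.79e-19) for SiNAT10_TGFB over TGFB and −0.50 (SE 0.064, adjusted p = 1.87e-06) for TGFB over con, and the interaction was 0.67 (SE 0.088, adjusted p = 3.32e-05). IFIT1, which stood at 97.4, 106 and 111 CPM in SiNAT10_TGFB cells, 77.95, 84.3 and 115 CPM in SiNAT10 cells, 33.9, 35.4 and 32.7 CPM in TGFB cells and 59.6, 50.4 and 55.4 CPM in con cells, had the same order of groups, except that SiNAT10 replicate 3 was above all the SiNAT10_TGFB libraries. Its log2 fold change was 0.74 (SE 0.10) for SiNAT10 over con, 1.62 (SE 0.11) for SiNAT10_TGFB over TGFB and −0.70 (SE 0.11) for TGFB over con, with an interaction of 0.88 (SE 0.15, adjusted p = 0.000619). IFIT3, a partner that stabilises IFIT1 on RNA, stood at 217, 218 and 250.1 CPM in SiNAT10_TGFB cells, 191, 188 and 206 CPM in SiNAT10 cells, 48.4, 52.4 and 50.02 CPM in TGFB cells and 77.2, 69.4 and 70.7 CPM in con cells. Its groups did not overlap and had the order of IFIT2. It rose by 1.43 (SE 0.068) in SiNAT10 over con and by 2.18 (SE 0.070) in SiNAT10_TGFB over TGFB, and its interaction was 0.75 (SE 0.096, adjusted p = 2.33e-05). IFIT5, at 25.1, 26.3 and 30.3 CPM in SiNAT10_TGFB cells, 25.6, 28.5 and 33.3 CPM in SiNAT10 cells, 24.4, 22.8 and 19.1 CPM in TGFB cells and 24.4, 24.6 and 25.2 CPM in con cells, was nearly level. It rose in SiNAT10_TGFB over TGFB alone, by 0.30 (SE 0.11, adjusted p = 0.0214), a call that was lost without SiNAT10_TGFB replicate 3 or TGFB replicate 3 and with a smooth trend of the counts on transcript GC content removed from each library (0.12).

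The OAS enzymes make 2′-5′-linked oligoadenylate when they meet double-stranded RNA, which activates RNase L; OASL lacks that activity and acts on RNA sensing instead. OAS1, OAS2 and OAS3 form a cluster on chromosome 12, and OASL (ENSG00000135114, chromosome 12, 121019111 to 121039242) lies apart from them on the same chromosome. OASL stood at 173, 172 and 197 CPM in SiNAT10_TGFB cells, 118, 122 and 144 CPM in SiNAT10 cells, 37.5, 39.6 and 38.8 CPM in TGFB cells and 56.8, 53.96 and 49.7 CPM in con cells. The 4 groups did not overlap, with SiNAT10_TGFB highest and TGFB lowest. Its log2 fold change was 1.26 (SE 0.079, adjusted p = 5.51e-12) for SiNAT10 over con, 2.23 (SE 0.081, adjusted p = 3.41e-16) for SiNAT10_TGFB over TGFB, −0.47 (SE 0.080, adjusted p = 9.41e-05) for TGFB over con and 0.50 (SE 0.076, adjusted p = 4.75e-05) for SiNAT10_TGFB over SiNAT10, with an interaction of 0.97 (SE 0.11, adjusted p = 4.59e-06). OAS1 stood at 10.6, 12.1 and 14.6 CPM in SiNAT10_TGFB cells, 12.7, 8.39 and 13.3 CPM in SiNAT10 cells, 3.24, 2.48 and 4.15 CPM in TGFB cells and 4.94, 4.100 and 4.75 CPM in con cells. The siRNA libraries were above all others, and TGFB and con overlapped. It rose by 1.32 (SE 0.18) in SiNAT10 over con and by 1.92 (SE 0.19) in SiNAT10_TGFB over TGFB. Its interaction of 0.60 (SE 0.26, adjusted p = 0.261) did not pass. OAS2 stood at 29.4, 27.1 and 30.9 CPM in SiNAT10_TGFB cells, 28.1, 25.03 and 29.8 CPM in SiNAT10 cells, 9.76, 9.72 and 9.69 CPM in TGFB cells and 14.2, 15.8 and 12.7 CPM in con cells. Both siRNA groups overlapped one another above con, and TGFB was below con. It rose by 0.95 (SE 0.099) and by 1.58 (SE 0.10), with an interaction of 0.63 (SE 0.14, adjusted p = 0.0101). OAS3, the largest of the enzymes, had the smallest siRNA differences of the 4, with 130.3, 120.4 and 119.6 CPM in SiNAT10_TGFB cells, 133, 129 and 127 CPM in SiNAT10 cells, 89.5, 91.5 and 101 CPM in TGFB cells and 111, 122 and 123 CPM in con cells. The TGFB libraries were below all others. Its 0.13 (SE 0.065, adjusted p = 0.1) for SiNAT10 over con did not pass, and it rose by 0.39 (SE 0.065, adjusted p = 1.97e-05) in SiNAT10_TGFB over TGFB.

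The dynamin-like GTPases MX1 and MX2, which block viral nucleocapsids, rose in both siRNA comparisons at low levels. MX1 stood at 12.9, 12.8 and 16.4 CPM in SiNAT10_TGFB cells, 14.7, 12.8 and 11.03 CPM in SiNAT10 cells, 5.12, 6.09 and 5.84 CPM in TGFB cells and 7.84, 7.87 and 6.497 CPM in con cells, with both siRNA groups above both groups without siRNA. It rose by 0.79 (SE 0.14, adjusted p = 3.82e-05) in SiNAT10 over con and by 1.30 (SE 0.14, adjusted p = 4.53e-08) in SiNAT10_TGFB over TGFB. MX2 stood at 16.2, 14.6 and 17.6 CPM in SiNAT10_TGFB cells, 18.9, 18.4 and 16.5 CPM in SiNAT10 cells, 7.26, 6.65 and 7.53 CPM in TGFB cells and 8.16, 10.3 and 10.7 CPM in con cells. The siRNA groups were again above the others, and TGFB was below con. MX2 rose by 0.88 (SE 0.12, adjusted p = 1.24e-06) and by 1.18 (SE 0.12, adjusted p = 2.34e-08). Neither interaction passed, at 0.51 (SE 0.20) for MX1 and 0.30 (SE 0.17) for MX2. MX2 fell in TGFB over con with −0.44 (SE 0.12, adjusted p = 0.0105), a call lost without con replicate 3 (−0.37), and MX1 stood at −0.38 (adjusted p = 0.0582).

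ISG15 is a ubiquitin-like protein, UBE2L6 the enzyme that conjugates it, HERC5 the main human ligase for it and HERC6 a relative of that ligase, and USP18 removes it and restrains the interferon receptor. All 5 genes rose in both siRNA comparisons. ISG15 (ENSG00000187608, chromosome 1, 1001138 to 1014540) stood at 237, 256 and 262 CPM in SiNAT10_TGFB cells, 241, 208 and 201 CPM in SiNAT10 cells, 62.4, 59.1 and 64.2 CPM in TGFB cells and 62.4, 69.6 and 74.99 CPM in con cells. The siRNA libraries were above all others, while TGFB and con libraries overlapped. It rose by 1.65 (SE 0.076, adjusted p = 3.23e-14) in SiNAT10 over con and by 2.02 (SE 0.077, adjusted p = 7.55e-16) in SiNAT10_TGFB over TGFB. The interaction of ISG15, 0.37 (SE 0.10, adjusted p = 0.0498), was lost without 9 of the 12 libraries in turn. Of all 23 alternative settings, these omissions included, 16 lost it. HERC5 (ENSG00000138646, chromosome 4, 88457117 to 88506163) stood at 6.28, 6.14 and 7.24 CPM in SiNAT10_TGFB cells, 5.83, 6.61 and 6.59 CPM in SiNAT10 cells, 2.13, 2.05 and 2.599 CPM in TGFB cells and 4.82, 4.699 and 3.84 CPM in con cells. Its TGFB libraries were below all others, and con lay between them and the siRNA groups. It rose by 0.51 (SE 0.16, adjusted p = 0.0096) in SiNAT10 over con and by 1.54 (SE 0.17, adjusted p = 5.74e-08) in SiNAT10_TGFB over TGFB, fell in TGFB over con with −0.98 (SE 0.17, adjusted p = 0.000116), and had the largest interaction of the list, 1.03 (SE 0.23, adjusted p = 0.00959). The smaller of the siRNA differences, that without TGF-β1, was not called without con replicate 3 (0.41) or with the GC trend removed (0.34). HERC6, next to HERC5 on chromosome 4, stood at 40.9, 39.8 and 41.4 CPM in SiNAT10_TGFB cells, 35, 33.2 and 38.3 CPM in SiNAT10 cells, 16.6, 14.5 and 16.7 CPM in TGFB cells and 22.1, 25.5 and 21.4 CPM in con cells. The groups did not overlap, with SiNAT10_TGFB highest and TGFB lowest. HERC6 rose by 0.63 (SE 0.089) and by 1.35 (SE 0.092), with an interaction of 0.73 (SE 0.13, adjusted p = 0.00104). USP18 rose by 0.84 (SE 0.17) and by 1.57 (SE 0.17), with an interaction of 0.73 (SE 0.24, adjusted p = 0.104) that did not pass. UBE2L6 rose by 0.43 (SE 0.091) and by 0.49 (SE 0.092), and its interaction of 0.06 (SE 0.13, adjusted p = 0.88) did not pass.

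**Figure D3:**
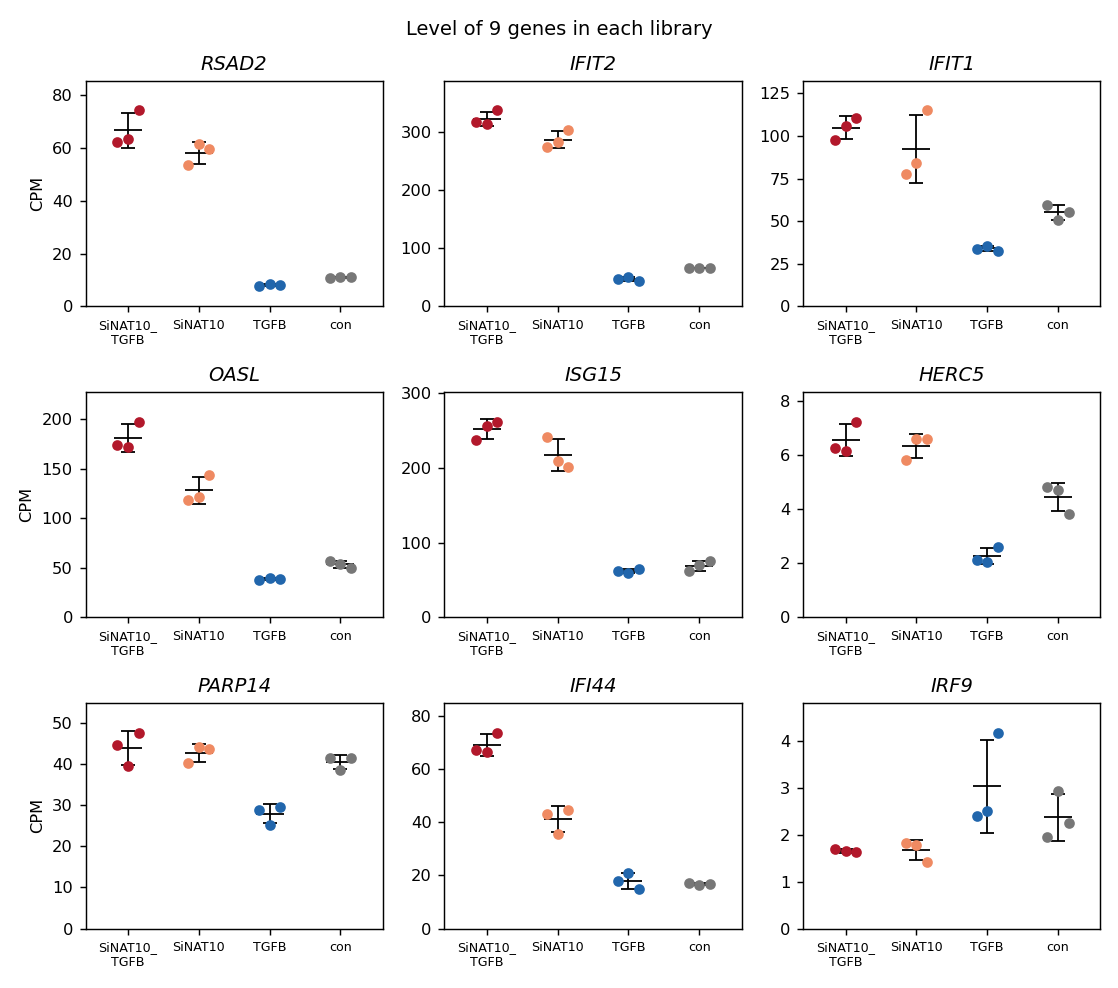
Points are the CPM of each of the 3 libraries per group on linear axes from 0, dashes the mean and bars ± SD, for 9 genes in the order SiNAT10_TGFB, SiNAT10, TGFB and con. In RSAD2, IFIT2, OASL and ISG15 both siRNA groups stand far above TGFB and con, in PARP14 the TGFB group alone stands apart, and IRF9 is lower in the siRNA groups.

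The IFITM proteins block the fusion of viruses with cell membranes, and BST2 (tetherin) holds budding virus particles at the cell surface. BST2 stood at 34.8, 40.3 and 41.4 CPM in SiNAT10_TGFB cells, 42.8, 41.9 and 41.4 CPM in SiNAT10 cells, 23.2, 18.1 and 21.3 CPM in TGFB cells and 24.98, 25.8 and 30.2 CPM in con cells. Both siRNA groups were above TGFB and con, and every TGFB library was below every con library. BST2 rose by 0.64 (SE 0.097, adjusted p = 6.80e-06) and by 0.90 (SE 0.099, adjusted p = 6.04e-08) in the siRNA comparisons and fell in TGFB over con with −0.37 (SE 0.099, adjusted p = 0.00733), the last lost without con replicate 3 or TGFB replicate 2 (both −0.28). IFITM3 stood at 189, 182 and 186 CPM in SiNAT10_TGFB cells, 257, 218 and 202 CPM in SiNAT10 cells, 118, 110.2 and 131 CPM in TGFB cells and 120.4, 151 and 144 CPM in con cells. All siRNA libraries were above the others. IFITM3 rose by 0.71 (SE 0.086) in SiNAT10 over con and by 0.63 (SE 0.086) in SiNAT10_TGFB over TGFB. IFITM2 went against this, with 17.4, 16.7 and 16.6 CPM in SiNAT10_TGFB cells, 28.1, 26.96 and 21.3 CPM in SiNAT10 cells, 17.7, 14.7 and 16.9 CPM in TGFB cells and 20.3, 27.4 and 25.9 CPM in con cells. SiNAT10_TGFB overlapped TGFB and SiNAT10 overlapped con, with both TGF-β1 groups below both others. It did not pass in either siRNA comparison, at 0.05 (SE 0.12) and 0.04 (SE 0.12), and fell with TGF-β1, with −0.58 (SE 0.12, adjusted p = 0.000687) without siRNA and −0.59 (SE 0.12, adjusted p = 0.00119) with it. IFITM1 rose in SiNAT10_TGFB over TGFB by 0.69 (SE 0.20, adjusted p = 0.00462), with 2.92 to 3.99 CPM in SiNAT10_TGFB cells and 1.88 to 2.48 CPM in TGFB cells. Its fall in TGFB over con, −0.68 (SE 0.19, adjusted p = 0.0111), was lost without con replicate 3 (−0.60) or TGFB replicate 1 (−0.58). IFITM1 and IFITM2 share 32.5% and 22.7% of their exon bases with one another, and IFITM3 shares 21.3% with an antisense gene, so their counts are less certain.

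STAT2, IRF9, IRF1 and IRF7 are the transcription factors of the list, and SP110 a nuclear body protein. STAT2, the subunit of ISGF3 that carries its activation domain, stood at 92.9, 89.8 and 90.2 CPM in SiNAT10_TGFB cells, 95.8, 93.98 and 82.6 CPM in SiNAT10 cells, 62.8, 54.9 and 62.4 CPM in TGFB cells and 78.6, 78.5 and 76.2 CPM in con cells. The TGFB libraries were the lowest, without overlap with any other group. STAT2 rose by 0.22 (SE 0.070, adjusted p = 0.00975) in SiNAT10 over con and by 0.60 (SE 0.070, adjusted p = 1.61e-07) in SiNAT10_TGFB over TGFB, and its interaction was 0.38 (SE 0.099, adjusted p = 0.0298). The first was lost with the GC trend removed (0.099). IRF1, a transcriptional activator, stood at 39.5, 42.5 and 43.2 CPM in SiNAT10_TGFB cells, 44.2, 41.5 and 37.7 CPM in SiNAT10 cells, 24.9, 22.8 and 22.8 CPM in TGFB cells and 20.3, 22.4 and 20.4 CPM in con cells. All siRNA libraries were above all others. IRF1 rose by 0.97 (SE 0.084, adjusted p = 1.59e-09) and by 0.83 (SE 0.084, adjusted p = 1.69e-08) and stood at 0.16 (SE 0.086, adjusted p = 0.19) for TGFB over con, which did not pass. IRF9, the DNA-binding subunit of ISGF3, went against the rest with 1.700, 1.65 and 1.63 CPM in SiNAT10_TGFB cells, 1.82, 1.78 and 1.43 CPM in SiNAT10 cells, 2.41, 2.52 and 4.18 CPM in TGFB cells and 1.95, 2.93 and 2.25 CPM in con cells. All siRNA libraries were below all others. The log2 fold change of IRF9 was −0.50 (SE 0.26, adjusted p = 0.108) for SiNAT10 over con, which did not pass, and −0.87 (SE 0.25, adjusted p = 0.00604) for SiNAT10_TGFB over TGFB, which was lost without TGFB replicate 3 (−0.56, adjusted p = 0.0859). IRF7, which amplifies interferon genes, was not called in any comparison, with 0.30 (adjusted p = 0.063) for SiNAT10 over con and 0.17 (adjusted p = 0.324) for SiNAT10_TGFB over TGFB. Its transcript is 66.8% GC, the most of the list, and once each library's GC trend was taken out it was called higher in both, at 0.82 and 0.72. SP110 rose by 0.33 (SE 0.092), which was lost with the GC trend removed (0.17), and by 0.69 (SE 0.094). Of the exon bases of IRF9, 48.4% are shared with another gene on the same strand, and of those of IRF1 and SP110 22.0% and 20.9% with antisense genes.

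PARP9 and DTX3L form a complex that attaches ADP-ribose and ubiquitin, and PARP14 is a mono-ADP-ribosyltransferase; the 3 genes lie together on chromosome 3. All 3 fell in TGFB over con and rose in SiNAT10_TGFB over TGFB, and DTX3L alone was called in SiNAT10 over con. PARP9 stood at 12.7, 11.4 and 12.7 CPM in SiNAT10_TGFB cells, 12.3, 11.1 and 12.4 CPM in SiNAT10 cells, 6.45, 8.39 and 6.45 CPM in TGFB cells and 12.3, 12.1 and 9.87 CPM in con cells. The TGFB libraries lay below all others, and the other 3 groups overlapped. Its log2 fold change was 0.06 (SE 0.12, adjusted p = 0.709) for SiNAT10 over con, 0.79 (SE 0.13, adjusted p = 1.85e-05) for SiNAT10_TGFB over TGFB and −0.69 (SE 0.13, adjusted p = 0.000279) for TGFB over con, with an interaction of 0.73 (SE 0.18, adjusted p = 0.0203). PARP14 stood at 44.6, 39.5 and 47.6 CPM in SiNAT10_TGFB cells, 40.2, 44.1 and 43.6 CPM in SiNAT10 cells, 28.9, 25.3 and 29.6 CPM in TGFB cells and 41.6, 38.7 and 41.5 CPM in con cells, again with the TGFB libraries alone below the rest. It had 0.07 (SE 0.084) for SiNAT10 over con, which did not pass, and 0.65 (SE 0.085, adjusted p = 7.83e-07) for SiNAT10_TGFB over TGFB, with an interaction of 0.58 (SE 0.12, adjusted p = 0.00449). DTX3L stood at 22.5, 24.2 and 27.4 CPM in SiNAT10_TGFB cells, 29.3, 25.6 and 30.1 CPM in SiNAT10 cells, 15.9, 14.01 and 14.2 CPM in TGFB cells and 22.7, 21.9 and 25.6 CPM in con cells. Its TGFB libraries were below all others, and SiNAT10 was above con, by little in the closest libraries (25.64 CPM in SiNAT10 replicate 2, against 25.61 CPM in con replicate 3). DTX3L rose by 0.28 (SE 0.098, adjusted p = 0.022) and by 0.74 (SE 0.10, adjusted p = 1.49e-06) and fell in TGFB over con with −0.67 (SE 0.10, adjusted p = 2.02e-05); its interaction of 0.47 (adjusted p = 0.0667) did not pass. The smaller siRNA call of DTX3L was lost without any 1 of con replicates 1 and 2 and SiNAT10 replicates 1 and 3, where its log2 fold change was 0.23 to 0.25, and with GC correction (0.11).

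RSAD2 (viperin) makes a chain-terminating ribonucleotide against viral polymerases, and it had the largest siRNA differences of the list. RSAD2 (ENSG00000134321, chromosome 2, 6865806 to 6898239) stood at 62.4, 63.4 and 74.2 CPM in SiNAT10_TGFB cells, 53.5, 61.5 and 59.6 CPM in SiNAT10 cells, 7.53, 8.51 and 8.03 CPM in TGFB cells and 10.8, 11.1 and 10.96 CPM in con cells. The siRNA libraries were above all others, and the TGFB libraries below the con libraries. The log2 fold change was 2.41 (SE 0.091, adjusted p = 1.11e-15) for SiNAT10 over con, 3.05 (SE 0.094, adjusted p = 2.28e-17) for SiNAT10_TGFB over TGFB and −0.45 (SE 0.099, adjusted p = 0.00152) for TGFB over con, and the interaction was 0.64 (SE 0.13, adjusted p = 0.00344). Its neighbour CMPK2 had no count in the same libraries. SAMD9 and its neighbour SAMD9L, cytosolic proteins that restrict translation and poxviruses, lie on chromosome 7. SAMD9 stood at 211, 194 and 208 CPM in SiNAT10_TGFB cells, 141, 157 and 182 CPM in SiNAT10 cells, 62.3, 66.6 and 59.1 CPM in TGFB cells and 98.9, 82.9 and 82.1 CPM in con cells, with no overlap between any groups. It rose by 0.86 (SE 0.084, adjusted p = 9.76e-09), by 1.71 (SE 0.086, adjusted p = 1.12e-13) and, in SiNAT10_TGFB over SiNAT10, by 0.35 (SE 0.083, adjusted p = 0.00508), and its interaction was 0.84 (SE 0.12, adjusted p = 8.55e-05). SAMD9L stood at 25.02, 25.4 and 28.2 CPM in SiNAT10_TGFB cells, 24.3, 24.4 and 31.1 CPM in SiNAT10 cells, 12.3, 15.2 and 11.7 CPM in TGFB cells and 20.6, 19.03 and 20.5 CPM in con cells. Both siRNA groups were above con and TGFB below it. SAMD9L rose by 0.41 (SE 0.11), which was lost with the GC trend removed (0.19), and by 1.00 (SE 0.11), with an interaction of 0.59 (SE 0.16, adjusted p = 0.0311).

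**Figure D4:**
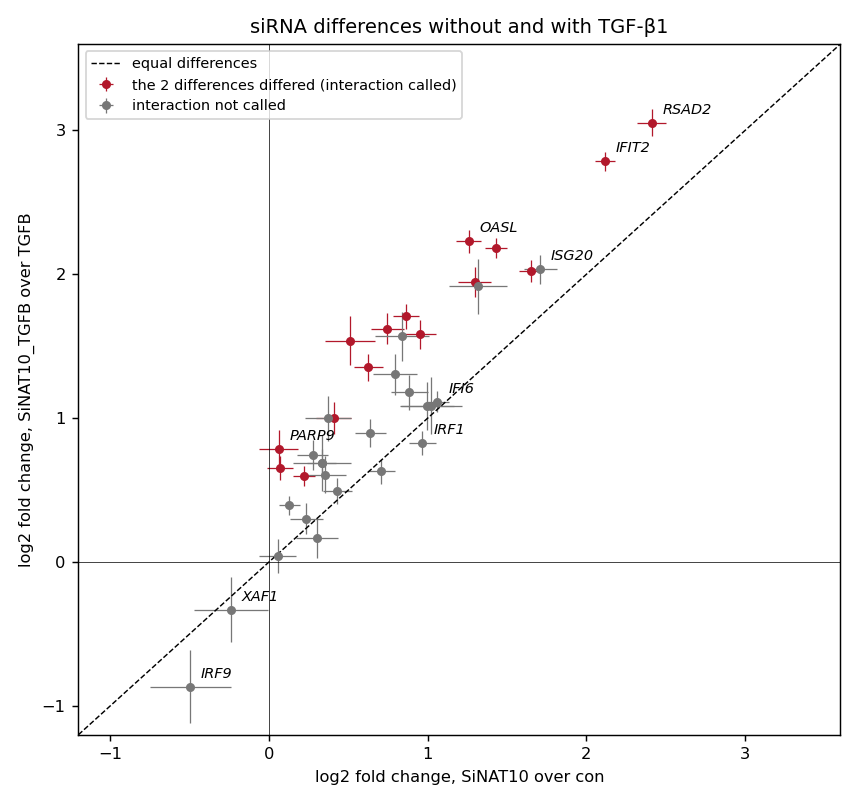
Each point is 1 of the 38 genes, with its log2 fold change for SiNAT10 over con on the x axis and for SiNAT10_TGFB over TGFB on the y axis, both with bars of 1 SE. The dashed line marks equal differences; 32 of the 38 points lie above it, red points are the 15 genes whose interaction was called, and RSAD2 and IFIT2 lie farthest up on both axes.

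The IFI genes are a mixed set named for their induction by interferon, and all 5 rose in both siRNA comparisons. IFI44, a cytoplasmic protein found with microtubules, stood at 67.2, 66.3 and 73.6 CPM in SiNAT10_TGFB cells, 42.9, 35.5 and 44.7 CPM in SiNAT10 cells, 18.03, 20.7 and 14.9 CPM in TGFB cells and 17.1, 16.2 and 16.8 CPM in con cells. Both siRNA groups were above TGFB and con, which overlapped, and SiNAT10_TGFB was above SiNAT10. Its log2 fold change was 1.30 (SE 0.10, adjusted p = 3.98e-10) for SiNAT10 over con, 1.95 (SE 0.10, adjusted p = 2.84e-13) for SiNAT10_TGFB over TGFB and 0.75 (SE 0.099, adjusted p = 6.61e-06) for SiNAT10_TGFB over SiNAT10, with an interaction of 0.65 (SE 0.14, adjusted p = 0.00941). IFI6, a mitochondrial and ER membrane protein, stood at 53.1, 57.01 and 59.01 CPM in SiNAT10_TGFB cells, 70.4, 64.7 and 67.7 CPM in SiNAT10 cells, 24.4, 27.1 and 26.6 CPM in TGFB cells and 33.2, 31.2 and 32.8 CPM in con cells. The groups did not overlap, with SiNAT10 highest and TGFB lowest. It rose by 1.06 (SE 0.073, adjusted p = 2.97e-11) and by 1.11 (SE 0.074, adjusted p = 1.40e-11), and fell with TGF-β1, with −0.32 (SE 0.075) without siRNA and −0.26 (SE 0.072) with it. The last of these was lost without SiNAT10 replicate 1 or SiNAT10_TGFB replicate 1. IFI35, which binds the regulator NMI, stood at 8.92, 11.7 and 11.1 CPM in SiNAT10_TGFB cells, 17.1, 11.4 and 12.6 CPM in SiNAT10 cells, 5.96, 5.002 and 4.83 CPM in TGFB cells and 9.41, 11.7 and 10.7 CPM in con cells, with the TGFB libraries below all others. It fell in TGFB over con with −1.005 (SE 0.16, adjusted p = 2.80e-05) and rose in SiNAT10_TGFB over TGFB by 1.00 (SE 0.16, adjusted p = 1.03e-05). Its call in SiNAT10 over con, 0.37 (SE 0.15, adjusted p = 0.0368), was lost without con replicate 1, con replicate 3 or SiNAT10 replicate 1. Of all 24 alternative settings, these omissions included, 9 lost that call. IFI27 rose by 1.00 (SE 0.17) and by 1.08 (SE 0.17), and IFI44L by 1.02 (SE 0.20) and by 1.09 (SE 0.20).

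Of the remaining genes, ISG20 and TRIM21 rose in both siRNA comparisons and XAF1 in neither. ISG20, an RNA exonuclease, stood at 46.05, 41.4 and 46.5 CPM in SiNAT10_TGFB cells, 37.7, 33.7 and 34.9 CPM in SiNAT10 cells, 9.76, 10.4 and 12.6 CPM in TGFB cells and 10.8, 9.799 and 11.9 CPM in con cells. The TGFB and con libraries overlapped, and all siRNA libraries were above them. It rose by 1.71 (SE 0.10, adjusted p = 2.95e-12) and by 2.03 (SE 0.10, adjusted p = 1.17e-13), and its interaction of 0.32 (SE 0.14, adjusted p = 0.268) did not pass. TRIM21, a cytosolic antibody receptor and ubiquitin ligase, rose by 0.36 (SE 0.13) and by 0.61 (SE 0.13), the smaller of which was lost without con replicate 1, con replicate 2 or SiNAT10 replicate 1 and with GC correction (0.25). XAF1, a promoter of apoptosis, stood at 3.401, 2.496 and 2.72 CPM in SiNAT10_TGFB cells, 1.72, 2.25 and 2.04 CPM in SiNAT10 cells, 4.04, 2.89 and 3.92 CPM in TGFB cells and 1.77, 2.900 and 2.44 CPM in con cells. The TGFB and con libraries overlapped. XAF1 rose in TGFB over con by 0.61 (SE 0.22, adjusted p = 0.0496), the 1 call against the direction of the list there; it was lost under 7 of the 12 omissions of 1 library, the lowest value being 0.44 without con replicate 1, and 38.3% of its exon bases are shared with an antisense gene.

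**Figure D5:**
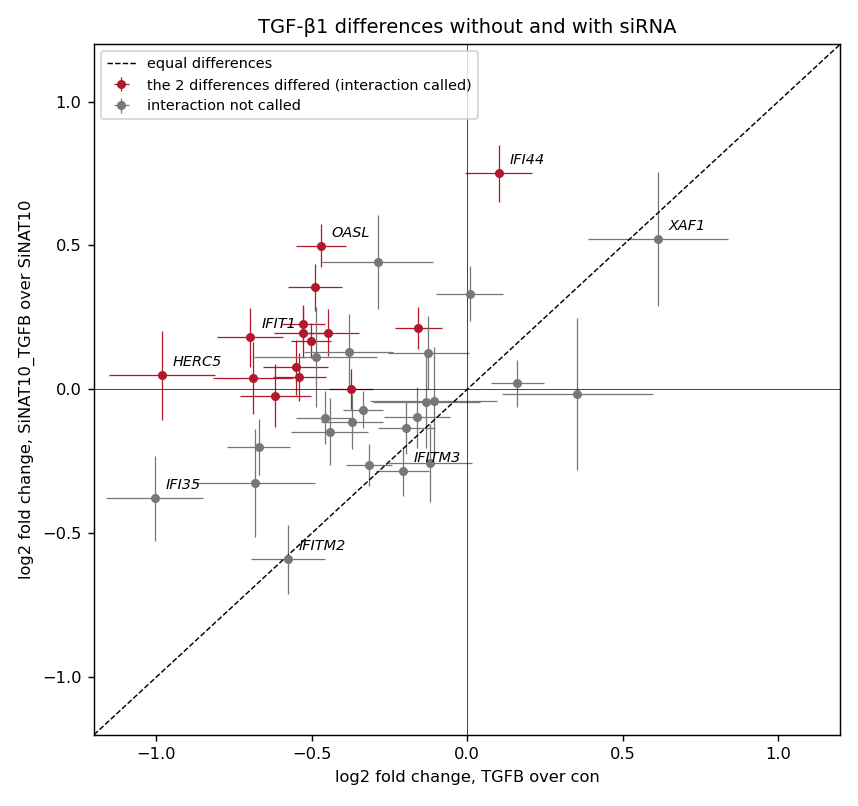
Each point is 1 of the 38 genes, with its log2 fold change for TGFB over con on the x axis and for SiNAT10_TGFB over SiNAT10 on the y axis, both with bars of 1 SE. Most points lie left of 0 on the x axis and near 0 on the y axis; IFITM2 lies near the dashed line of equal differences, and IFI35 and HERC5 lie farthest to the left.

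Upstream of the list, the interferon genes themselves were scarce. IFNB1, interferon beta, stood at 0.833, 1.804 and 1.05 CPM in SiNAT10_TGFB cells, 1.304, 1.999 and 0.787 CPM in SiNAT10 cells, 0.741, 0.373 and 0.135 CPM in TGFB cells and 0.639, 0.4000 and 0.219 CPM in con cells. All siRNA libraries were above all others. It rose by 1.68 (SE 0.51, adjusted p = 0.00824) in SiNAT10 over con and by 1.53 (SE 0.52, adjusted p = 0.0158) in SiNAT10_TGFB over TGFB. The first call was lost without SiNAT10 replicate 2 (1.304), the second without SiNAT10_TGFB replicate 2 (1.16) or TGFB replicate 3 (1.14). IFNL1, interferon lambda 1, whose receptor leads to the same ISGF3 complex, stood at 0.798, 1.57 and 1.85 CPM in SiNAT10_TGFB cells, 0.995, 0.893 and 1.396 CPM in SiNAT10 cells, 0.247, 0.652 and 0.169 CPM in TGFB cells and 0.174, 0.267 and 0.687 CPM in con cells. The siRNA libraries were again above all others. It rose by 1.53 (SE 0.52, adjusted p = 0.0167) and by 1.96 (SE 0.52, adjusted p = 0.0029), the first lost without con replicate 1, con replicate 2 or SiNAT10 replicate 3. IFNE fell in SiNAT10_TGFB over TGFB with −0.58 (SE 0.18, adjusted p = 0.00961) and rose in TGFB over con by 0.71 (SE 0.18, adjusted p = 0.00506), and IFNA1, IFNA2, IFNK, IFNL2 and IFNL3 had too few counts to test. The receptor subunit IFNAR1 stood at 97.6 ± 1.56 CPM in SiNAT10_TGFB cells, 99.8 ± 11.1 CPM in SiNAT10 cells, 88.8 ± 4.54 CPM in TGFB cells and 96.5 ± 7.53 CPM in con cells (SD, n = 3 each). It was not called in any comparison, with 0.05 (SE 0.076) for SiNAT10 over con, and IFNAR2, at 0.691 to 1.28 CPM, was not called either. Of the exon bases of IFNAR2, 44.2% are shared with a gene on the same strand and 39.1% with an antisense gene. Its level and its lack of a call are therefore less certain.

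Among all 21 ligand, receptor and signalling genes looked up, 16 could be tested, of which 7 rose and 3 fell in SiNAT10 over con and 7 rose and 3 fell in SiNAT10_TGFB over TGFB. Over all genes tested 26.4% were called higher and 26.4% lower in SiNAT10 over con, 26.3% higher and 26.8% lower in SiNAT10_TGFB over TGFB, and 11.9% higher and 12.2% lower in TGFB over con, and the counts that follow stand beside these shares. Of the 3 lower in SiNAT10 over con, IFNLR1 was lost under 3 of the 12 omissions of 1 library (−0.36 to −0.19). Over all 24 alternative settings, omissions included, IFNLR1 was lost in 12. Of the signalling genes, STAT3 rose most clearly, by 0.74 (SE 0.052) and by 0.71 (SE 0.052), and TYK2, the kinase bound to IFNAR1, fell with −0.82 (SE 0.071) and −0.90 (SE 0.071). IRF3, given here for the role named above, fell with −0.79 (SE 0.093) and −0.76 (SE 0.093). Of the receptor genes the interferon gamma receptor subunit IFNGR2 rose by 0.58 (SE 0.071) and by 0.60 (SE 0.071). Of 9 negative regulators, 4 rose and 1 fell in SiNAT10 over con and 4 rose and 2 fell in SiNAT10_TGFB over TGFB. Among the 4 that rose in SiNAT10 over con, PIAS1 (0.19) and SOCS3 (0.19) were each lost under 1 omission, and of the 2 that fell in SiNAT10_TGFB over TGFB, CISH was lost under 4 of the 12 (−0.56 to −0.53). Over all 24 settings, omissions included, CISH was lost in 10. SOCS1, which blocks the receptor's kinases, rose by 1.48 (SE 0.19, adjusted p = 6.30e-07) and by 0.73 (SE 0.19, adjusted p = 0.00222), and IRF2BP2, a partner of the repressor IRF2, fell with −0.29 (SE 0.076) and −0.30 (SE 0.076). Antisense genes share 19.3% of the exon bases of IRF3, 12.8% of IFNGR2, 32.3% of PIAS1 and 14.7% of IRF2BP2, so their counts are less certain. Of 15 genes that lean to interferon gamma, with SOCS1 again among them, 13 could be tested, and 2 rose and 2 fell in SiNAT10 over con, while 8 rose and 2 fell in SiNAT10_TGFB over TGFB. In SiNAT10 over con 1 of the 2 that rose (IDO1) was lost without SiNAT10 replicate 3 (1.87), and 1 of the 2 that fell (HLA-DMA) without con replicate 3 (−0.52) or SiNAT10 replicate 3 (−0.67). IDO1 passed the count filter through the siRNA groups, in which it was higher. In SiNAT10_TGFB over TGFB the calls of CXCL10, GBP3, IRF8 and HLA-DMA were lost under 4, 4, 3 and 6 of the 12 omissions, at values of 1.11 to 1.56, 0.17 to 0.20, 0.52 to 0.64 and −0.63 to −0.45. Over all 24 settings, omissions included, these calls were lost in 6, 7, 5 and 15. CXCL9 and HLA-DRA, strongly induced by interferon gamma, were at or near 0, and GBP1, a guanylate-binding GTPase, fell with −0.78 (SE 0.075, adjusted p = 8.34e-09) and −0.82 (SE 0.075, adjusted p = 3.14e-09). Of 8 double-stranded RNA sensing genes, 7 could be tested, and 3 rose and 3 fell in SiNAT10 over con, 3 rose and 2 fell in SiNAT10_TGFB over TGFB, and 0 rose and 5 fell in TGFB over con. Of the 5, ADAR was lost under 7 of the 12 omissions (−0.17 to −0.14) and IFIH1 under 3 (−0.35 to −0.27), and of the siRNA calls EIF2AK2 in SiNAT10 over con was lost under 3 (−0.19 to −0.14) and ADAR in SiNAT10_TGFB over TGFB under 2 (−0.14 to −0.13). In the same order, these calls were lost in 10, 7, 6 and 4 of all 24 settings. DDX58, the RNA sensor RIG-I, rose by 1.25 (SE 0.099) and by 1.58 (SE 0.10), and MAVS, the mitochondrial adaptor of that pathway, fell with −0.83 (SE 0.056) and −0.54 (SE 0.056).

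Set against the sequences shown above, the siRNA comparisons had medians above 0 and TGFB over con medians below 0 both for genes with the ISRE letters in their window and for genes without. The 21 genes with the letters had a median log2 fold change of 0.74 in SiNAT10 over con and of 1.09 in SiNAT10_TGFB over TGFB, with 16 and 21 called higher, where 26.4% and 26.3% of all genes were. The 10 tested genes with a window but no letters had medians of 0.39 and 0.76, with 8 called higher in each. The 7 genes without a window had medians of 0.88 and 1.57. In TGFB over con the medians were −0.37, −0.42 and −0.47 for genes with the letters, without them and without a window. Single genes cut across this. OAS3 has 2 matches and a siRNA difference of 0.13 without TGF-β1, and PARP14 has 1 match and 0.07, whereas OAS1 and IRF1 have no ISRE match in their windows and differed by 1.32 and 0.97. These are descriptions with no test, and a match is not evidence of binding.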

How the data were processed

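Gene counts and FPKM were deposited by the authors for 12 bulk RNA libraries. Per the submitters' processing notes, fastp, HISAT2 2.2.1 and hg38 were used; no source used here names the counting tool, annotation or strand setting, so a gene and an antisense partner cannot be told apart. Gene starts and ends matched GENCODE release 29 for all 58735 identifiers. The FPKM deposited by the authors equalled the counts per length up to 1 factor per library (largest relative departure 1.13e-08), so FPKM served for levels per length and for alternatives on log2(FPKM + 1) and log2(FPKM + 0.1).

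edgeR 4.0.16 in R 4.3.3 was run on the deposited counts. Genes low in counts were removed by filterByExpr (99.884 to 99.925% of counts kept), libraries scaled by TMM (factors 0.9217 to 1.069), and 1 quasi-likelihood model with 4 group means fitted to all 12 libraries, with Benjamini-Hochberg adjustment over 18560 genes and an SE of the log2 fold change divided by the square root of F. The steps were also run on simulated data in which a small part of the genes changed, in both directions. That run does not test the scaling under a change as widespread as in these data. DESeq2 1.42.0 and limma 3.58.1 gave alternatives, with other scalings, filters, thresholds, a replicate block, a GC trend (spline with 5 degrees of freedom) and the omission of each library. Intervals and floors cover counting error only, and reads are not independent molecules.

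The 39 genes, the pathway lists and the tests were chosen with earlier results of these data known. Per-library values are given for the gene of each role group with the smallest p for SiNAT10 over con, for those that went against their group and for those whose interaction passed, with a few more added after their values were seen. From the pathway lists, ligands, receptors and the gene with the smallest p in each direction are named, plus IRF3; some genes of these lists are not reported here. IDO1, which had under 1.4 CPM in every library, is counted but its levels are not described.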

Additional observations from a re-analysis of the deposited data

Results flagged for a closer look

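Each of the following results was singled out because the siRNA difference with TGF-β1 differed from that without it, by edgeR's interaction test at an adjusted p under 0.05. The values are log2 interactions, SiNAT10_TGFB over TGFB minus SiNAT10 over con. Among the RNA-binding genes they were 0.8778 for IFIT1, 0.6706 for IFIT2 and 0.7547 for IFIT3, and among the OAS family 0.6275 for OAS2 and 0.9696 for OASL. In the ISG15 system they were 0.3712 for ISG15, 1.029 for HERC5 and 0.7258 for HERC6. STAT2 had 0.3764, PARP9 0.727 and PARP14 0.5827. RSAD2 had 0.6444, SAMD9 0.8436, SAMD9L 0.5941 and IFI44 0.6495. Outside the list, the interferon gamma leaning GTPase GBP5 had 1.103 and the RNA sensing adaptor MAVS 0.2841. The interaction of GBP5 was lost under 7 of the 12 omissions of 1 library (0.91 to 1.14) and that of MAVS under 8 (0.26 to 0.30), beside the losses given above for ISG15, PARP9, SAMD9L and STAT2. Over all 23 alternative settings, omissions included, GBP5 was lost in 11 and MAVS in 12. All 17 interactions were above 0, where 50.4% of the interaction calls over all genes were higher ones. MAVS fell in both siRNA comparisons, with −0.83 without TGF-β1 and −0.54 with it. Its value above 0 is therefore a smaller fall with TGF-β1. With 3 libraries per group no single library was tested for standing apart from its group.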

How the results depend on the processing

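No gene of the list that was called changed its direction under the alternatives run. Calls were also lost in settings other than the omissions named above. In SiNAT10 over con, DTX3L and TRIM21 lost their calls in 7 and 6 of the 24 settings. In SiNAT10_TGFB over SiNAT10, IFITM3, IFIT3 and ISG20 lost theirs in 10, 7 and 7. Outside the list GBP3, which was not called for SiNAT10 over con, was called lower with the GC trend removed (−0.1851), and the cause was not tested. For SiNAT10 over con the median of the list was 0.729 on library size alone, 0.4334 on log2(FPKM + 1) with and without a filter, 0.7208 with the GC trend removed, 0.7939 over the 31 tested genes with at most 10% exon overlap (a choice made after seeing the data), and 0.6071 to 0.7179 with 1 library left out. The higher genes, 29 in the main run, numbered 25 with the GC trend removed and 32 on library size alone. They numbered 26 at an adjusted p under 0.01, on unfiltered log2(FPKM + 1), and among the 31 genes without overlap. For SiNAT10_TGFB over TGFB the same settings gave 1.173 on library size alone, 0.6785 on log2(FPKM + 1), 0.9785 on log2(FPKM + 0.1), 1.179 without overlap and 0.9762 to 1.109 with 1 library left out; the 1 lower gene, IRF9, became 0 on unfiltered log2(FPKM + 1) and without overlap, and 0 to 1 with 1 library left out. For TGFB over con the 1 higher gene, XAF1, became 0 on library size alone, with no count filter, with DESeq2, on all 3 FPKM settings, with the replicate block, at an adjusted p under 0.01 and without overlap, and 0 to 1 with 1 library left out; the median was −0.5469 on library size alone and −0.3072 on log2(FPKM + 1). For SiNAT10_TGFB over SiNAT10 the higher genes numbered 3 on library size alone, 2 on unfiltered log2(FPKM + 1), 8 with the GC trend removed, 3 at an adjusted p under 0.01 and 3 to 7 with 1 library left out, the lower genes 1 at 0.01, 1 without overlap and 1 to 3 with 1 library left out, and the median was −0.03032 on library size alone. The interaction had 6 higher genes on unfiltered log2(FPKM + 1), and its median was 0.4484 on library size alone, 0.2903 on log2(FPKM + 1), 0.5827 without overlap and 0.3663 to 0.4442 with 1 library left out. FPKM with an added 1 understates the change of low genes by construction. Where an omission left 2 libraries in a group, the model pooled the spread over all groups.

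The replicate numbers do not pair the libraries: the 18 correlations of same-numbered deviations between groups ran from −0.0729 to 0.0485, 0 were over 0.1, and 1 of 12 libraries correlated best with its own number. With the replicate block, 28, 34, 0, 5 and 13 genes of the list were called higher and 0, 1, 23, 2 and 0 lower for SiNAT10 over con, SiNAT10_TGFB over TGFB, TGFB over con, SiNAT10_TGFB over SiNAT10 and the interaction. In the same order, calls over all genes in either direction numbered 9459, 9579, 4113, 1806 and 591. Genes near 1 CPM, such as IFNB1 and IFNL1, rest on few counts, with SEs of 0.51 to 0.52 for their siRNA differences.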
